A study of Mus musculus with 4 samples.

Results

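The cytosolic ribosome reads mRNA with a small and a large subunit, each built from ribosomal RNA and a set of proteins that are each encoded, with few exceptions, by a single expressed gene. The genes were taken by name: every gene whose mouse symbol is Rpl or Rps followed by a number, with the stalk genes Rplp0, Rplp1 and Rplp2 and with Rpsa, and without pseudogenes, genes whose names end in l and the Rps6k kinases. Of the 12208 genes in the table, 78 had such a symbol. One of them, Rps3a2, is annotated as a processed pseudogene and was left out, so 77 genes were described: 46 of the large subunit, 31 of the small subunit, with the 3 stalk genes counted in the large. These are all 77 protein-coding genes of this naming in the GENCODE M21 annotation, and all 77 passed the filter on low values (a mean of at least 1 CPM, counts per 1000000 reads in the listed genes).

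The cells were the mouse line 3T3, labelled as a pre-osteoblast line, and all 4 groups were of this line with no genotype or further agent given. The groups were control cells at 24 h, control cells at 48 h, cells given recombinant LTα1β2 for 24 h and cells given it for 48 h. LTα1β2, a membrane-type lymphotoxin of the TNF superfamily, acts through the lymphotoxin β receptor, and the study measured how it changes gene expression over time in these cells. Each group was 1 library of 1 line, so a difference between 2 libraries has a counting interval but no replicate check. The dose, what the control cells received and which 3T3 line was used were not given in the sources used here.

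Ribosomal protein mRNAs are among the most abundant and most stable mRNAs of growing cells. They are known as a coordinated class: most begin with a run of pyrimidines called a 5′ TOP motif, which places their translation under the control of the kinase complex mTORC1 and of the binding protein Larp1. Free ribosomal proteins that are not built into subunits are degraded, and a few of them, Rpl5 and Rpl11 among them, can bind Mdm2 and stabilise p53.

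Library depth, in reads worked out from the CPM steps, ran from 11355974 to 15995777 per library, lowest in the treated 48 h library. That library stood apart from the other 3. Weighted by reads, its median transcript had 2801 bases, against 3238 to 3316 in the others, and 3024 against 3391 to 3478 with the ribosomal protein genes left out. Of 13 mesenchymal and pre-osteoblast markers 11 were in the table, and their summed level was 43236 and 42861 CPM in the control libraries (24 h, then 48 h) and 31369 and 26566 CPM in the treated ones. Col1a2 and Col1a1 held most of this sum, at 16407 and 15684 CPM in control cells at 24 h. Of the 11, 5 fell with treatment in the additive limma fit described below, Sp7, Col1a1, Col3a1, Runx2 and Pdgfrb. Of all tested genes 2.27% fell. At both times 10 of the 11 were lower in treated than in control cells, and 1 was higher. Of 13 immune markers 3 were in the table, Lyz2, Cd68 and Csf1r, with sums from 57.4 to 85.9 CPM, and Ptprc was not. Of 10 epithelial and endothelial markers only Vwf was in the table, at 2.98 to 3.80 CPM. The part of the library's length shift or of the markers in the results below was not tested, except where a value with the length trend removed is given.

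Some of the genes carried a pyrimidine run at or near their annotated start site. The start windows are shown because a run at the cap defines this class of mRNA. RefSeq start windows (GRCm38.p6) were matched by symbol for 57 of the 77 genes, with 67 start sites between them. A run of at least 8 bases made only of C and T on the sense strand, overlapping the 10 bases on either side of the start, was present at 28 of the 67 sites (41.8%), against 13.7% of the 32851 start sites of all genes. The run included the start base itself at 16 of the 67 sites (23.9%), against 3.61% of all sites. Shown are 6 windows of 30 bases, 15 before the start and 15 from it on into the first exon, 5′ to 3′ on the strand of the gene. They were chosen among 20 genes whose run lies wholly inside the window. Of these, they belong to the 3 with the highest and the 3 with the lowest treated-to-control fold at 48 h. Rps14 and Rpl17 were left out of this choice beforehand, whatever their run, so the 20 do not count them. Capitals mark the pyrimidine run, and the annotated start is base 16. The run includes it in Rpl35, Rpl7a, Rpl28 and Rps10, while that of Rpl34 ends before it (bases 3 to 10) and that of Rpl39 begins after it (bases 22 to 29).
Rpl34: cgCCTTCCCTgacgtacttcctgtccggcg
Rpl39: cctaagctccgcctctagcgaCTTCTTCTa
Rpl35: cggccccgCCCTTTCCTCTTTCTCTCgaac
Rpl7a: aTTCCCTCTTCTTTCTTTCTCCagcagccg
Rpl28: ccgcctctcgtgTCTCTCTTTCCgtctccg
Rps10: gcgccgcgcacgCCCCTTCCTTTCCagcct
The windows lie at chr3:130730384-130730413 (Rpl34, minus strand), chrX:37085208-37085237 (Rpl39, minus), chr2:39005117-39005146 (Rpl35, minus), chr2:26910792-26910821 (Rpl7a, plus), chr7:4792950-4792979 (Rpl28, plus) and chr17:27635230-27635259 (Rps10, minus). The longest run of the 6, 21 bases, stood at Rpl7a, a low-fold gene, and the run of 18 bases at Rpl35, a high-fold gene. Genes with and without a run had medians of the log2 fold at 48 h close to each other, 0.82 over 27 genes with a run and 0.80 over 30 without. Outside the family the medians were -0.11 over 1470 genes with a run and -0.09 over 7331 without. A run of these letters is a description of the annotated window and not a mapped cap site.

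Together the 77 genes took 4.49% of the reads in the table in control cells at 24 h (95% exact binomial interval 4.48 to 4.50), 4.76% in control cells at 48 h (4.75 to 4.77), 4.87% in treated cells at 24 h (4.86 to 4.88) and 8.70% in treated cells at 48 h (8.68 to 8.72). The first 3 libraries lay close together and the treated 48 h library stood far above them. These intervals, like those of every ratio below, cover counting error only. CPM is a share, so more ribosomal protein mRNA in a cell and less of other mRNA cannot be told apart, and neither can more RNA per cell and more cells of a kind.

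Per gene the median level was 481 CPM at 24 h and 512 CPM at 48 h without LTα1β2, and 524 and 954 CPM with it. Rps2, which lies at the mRNA entry of the small subunit, had the highest CPM in every library (2200 and 2310 CPM in the control libraries, 2449 and 3894 CPM in the treated ones). Per kilobase of transcript and averaged over the libraries, the most abundant were Rpl41, which encodes the shortest ribosomal protein, at 3575 CPM per kilobase, Rps2 at 2480, the stalk gene Rplp1 at 2343, Rps26 at 2002 and Rps18 at 1844.

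Levels of 3 genes lay far below the rest. Rpl24, whose protein forms a bridge between the subunits, had 1.13, 0.916, 0.867 and 1.23 CPM in control 24 h, control 48 h, treated 24 h and treated 48 h, the first of these being 18 reads. It passed the filter narrowly, and the filter mean includes its highest value, that of the treated 48 h library. Rps10 had 5.75, 5.34, 6.47 and 5.28 CPM, and Rpl13a had 21.1, 21.8, 23.7 and 42.0 CPM, in the same order. The other 74 genes began at 175 CPM in control cells at 24 h (Rpl38). Ribosomal protein genes have many near-identical processed copies in the genome, and how reads that match several copies were counted was not given in the sources used here, so the levels of these 3 genes are uncertain. Of the genes above them, Rps15a, Rpl22 and Rpl18 were lowest per kilobase at 111, 139 and 188. These 3 are among 13 genes whose longest principal transcript is over 1.5 times the shortest, and on the shortest they stood at 900, 599 and 829 CPM per kilobase.

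**Figure D1:**
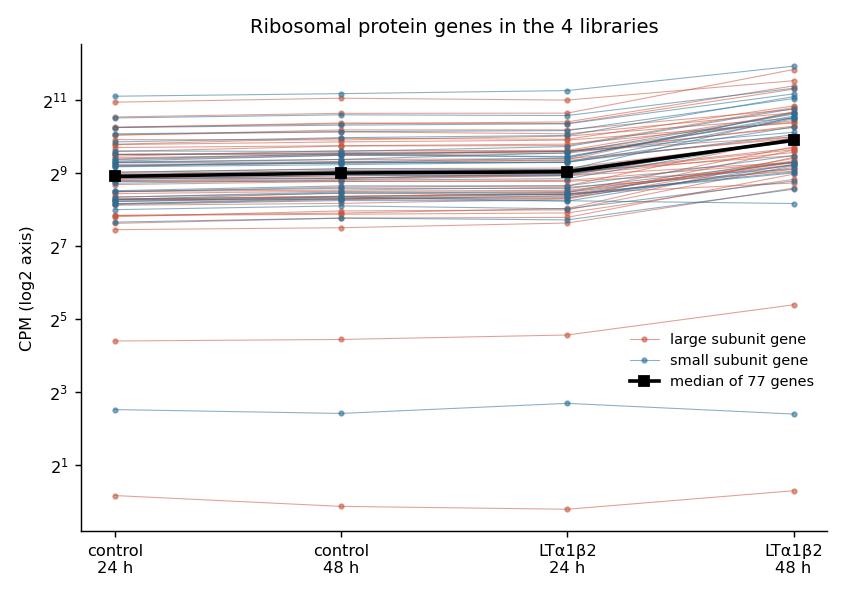
Level of each of the 77 genes in the 4 libraries, in CPM on a log2 axis (red, large subunit; blue, small subunit; black squares, median over the 77 genes). The medians of the first 3 libraries are 481, 512 and 524 CPM and that of the treated 48 h library is 954 CPM; the 3 low lines are Rpl13a, Rps10 and Rpl24.

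At 24 h the family as a whole was slightly higher in treated than in control cells. The pooled CPM ratio was 1.09 (1.08 to 1.09), and 76 of the 77 genes had a log2 fold above 0, where 54.9% of the 12160 tested genes did. Log2 folds are differences of log2(CPM + 1), treated minus control, which understates the change of low genes. Their median over the family was 0.12, against 0.02 over all tested genes. The counting interval of the single-gene ratio lay above 1 for 69 genes and below 1 for 0. At the read depth of these genes a small difference is enough for this. No share over all tested genes was worked out for this count.

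The differences at 24 h were small and narrow in range. By the size rule used here, a log2 fold of at least 0.32 in size, 0 of the 77 genes were higher (6.86% of all tested genes were) and 0 were lower (6.89%). Rps3, which helps form the mRNA entry channel of the small subunit, had the largest log2 fold, 0.25: it went from 631 CPM without to 752 CPM with LTα1β2, a ratio of 1.19 (1.16 to 1.22). Next came Rpl36a, Rpl35, Rpl38 and Rpl34, all of the large subunit, with log2 folds from 0.18 to 0.19. At the other end, Rpl24 had -0.19 on fewer than 20 reads in either library, and Rps27, Rpl14, Rps29 and Rpl10 had 0.01 to 0.03. Rpl10, one of the last proteins to join the large subunit, stood at 1058 CPM without and 1078 CPM with LTα1β2.

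At 48 h nearly the whole family was higher in treated than in control cells. The pooled ratio was 1.83 (1.82 to 1.83), 1.78 for the large subunit (1.77 to 1.78) and 1.90 for the small (1.89 to 1.91). Of the 77 genes 75 had a log2 fold above 0, where 40.7% of the tested genes did, with a median of 0.82 against -0.09 over all tested genes. The log2 fold was 0.32 or more in 74 genes (background 16.8%), and 60 genes (7.39%) reached 1.5-fold and 25 (1.86%) 2-fold, while 0 were at -0.32 or less (23.4%). With the length trend of each library removed, 57 genes were at 0.32 or more and 2 at -0.32 or less, Rps10 being 1 of the latter. In that setting 1993 and 1775 of all 12157 genes with a length were past these limits. The treated 48 h library was the highest of the 4 for 75 genes (27.4% of tested genes).

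Among small-subunit genes, Rps14, whose protein sits on the platform of the subunit, had the largest difference at 48 h. It stood at 483 and 512 CPM in the control libraries (24 h, then 48 h, as in what follows) and at 545 and 1480 CPM in the treated ones, 2.89-fold higher at 48 h (2.81 to 2.98). Rps27a, which is made as a fusion with ubiquitin, was at 625 and 630 CPM in the control libraries and at 680 and 1610 CPM in the treated ones. Rps3 was at 631 and 664 CPM in the control libraries and at 752 and 1567 CPM in the treated ones. In all 3 genes the treated 48 h library was far above the other 3 libraries, and the treated 24 h library lay above both controls by much less. Rps6, the substrate of the S6 kinases, was at 592 and 621 CPM in the control libraries and at 631 and 1058 CPM in the treated ones, and Rpsa, whose protein binds at the mRNA exit side, at 1456 and 1546 CPM and at 1525 and 2559 CPM. Both were below the family's pooled ratio, at 1.70-fold (1.66 to 1.75) and 1.65-fold (1.62 to 1.69). The Rpsa level in treated cells at 24 h lay below that of control cells at 48 h.

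Among large-subunit genes, Rpl36a followed Rps14 most closely, at 229 and 240 CPM in the control libraries and 261 and 692 CPM in the treated ones, 2.89-fold higher at 48 h (2.77 to 3.01). Rpl26, Rpl34 and Rpl39 came next with log2 folds of 1.41, 1.36 and 1.36; Rpl26 lies at, and Rpl39 in, the exit tunnel of the nascent protein. Rpl41 went from 1590 to 3651 CPM with treatment at 48 h (2.30-fold, 2.26 to 2.33), against 1485 to 1595 CPM at 24 h. Rpl11 and Rpl5, which join the ribosome together with 5S ribosomal RNA, had log2 folds of 1.10 and 0.80 at 48 h. Rpl3 and Rpl4, core proteins near the peptidyl transferase centre and the exit tunnel, had 0.52 and 0.56, and Rpl10 had 0.52. The core genes and Rpl10 thus lay in the lower part of the family.

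The stalk genes, whose proteins recruit the GTPases of translation, differed in size. Rplp0 was at 1965 and 2119 CPM in the control libraries and at 2043 and 2952 CPM in the treated ones, a ratio of 1.39 at 48 h (1.37 to 1.42). Rplp1 was at 884 and 990 CPM in the control libraries and at 972 and 1831 CPM in the treated ones, with a log2 fold of 0.89 at 48 h, and Rplp2 had 0.72. For Rplp0 and Rplp1 the treated 24 h library lay between the controls.

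Rps10, Rpl24, Rpl28 and Rpl27 were among the genes with the lowest log2 folds at 48 h. Rps10 was at -0.01 and Rpl24 at 0.22, both with intervals that include 1. Rpl28 was at 411 and 436 CPM in the control libraries and at 436 and 550 CPM in the treated ones, 1.26-fold at 48 h (1.22 to 1.31), and Rpl27 had a log2 fold of 0.37. The counting interval lay above 1 for 74 of the 77 genes and below 1 for 1. As at 24 h, no share over all tested genes was worked out for this count.

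**Figure D2:**
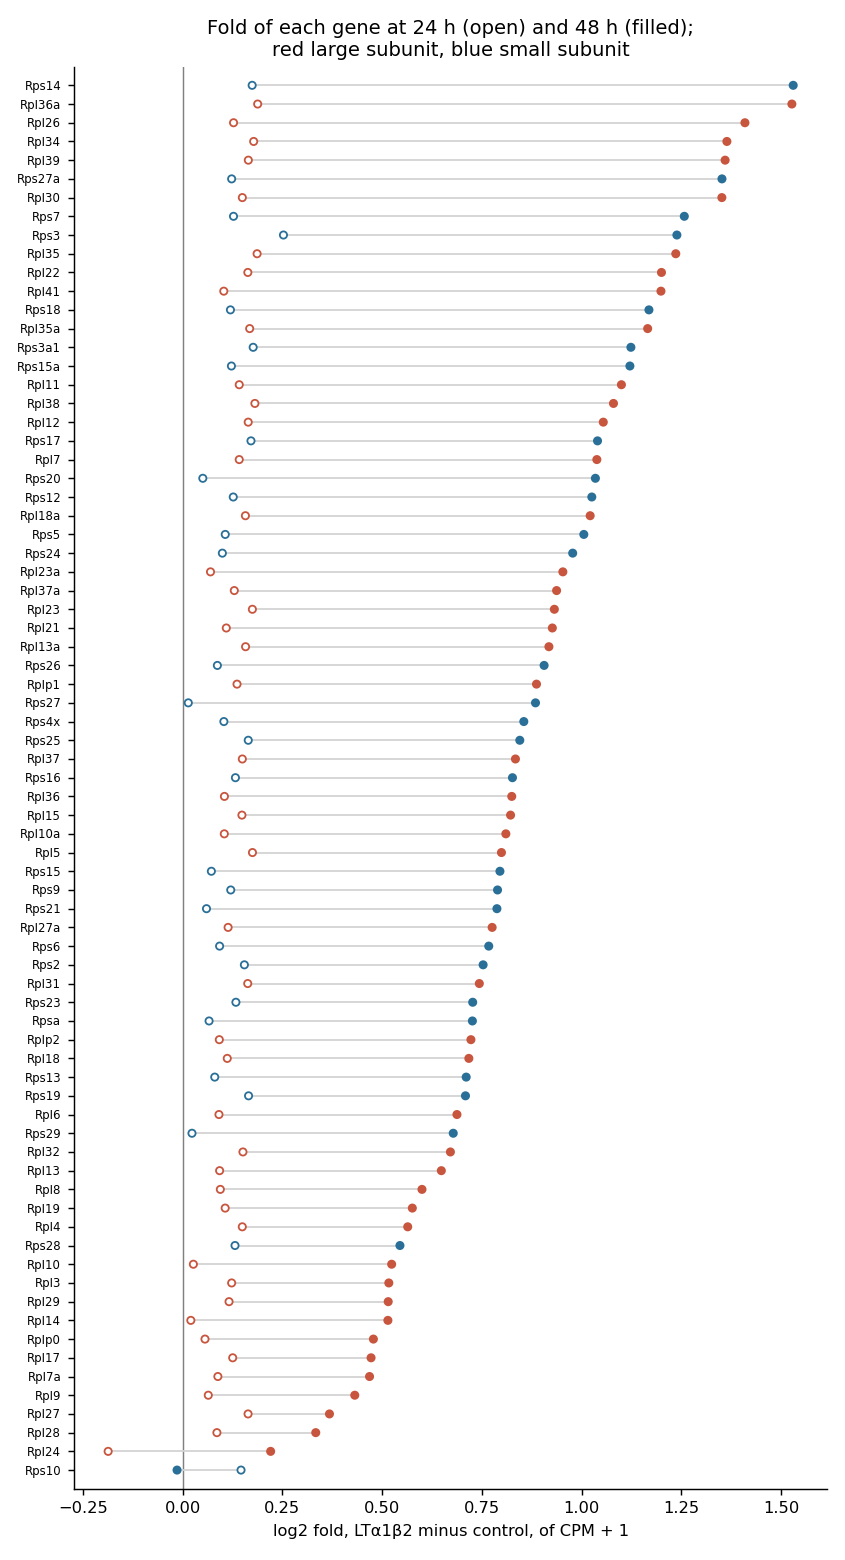
Log2 fold of CPM + 1, treated minus control, of 75 of the 77 genes at 24 h (open) and 48 h (filled), ordered by the 48 h value (red, large subunit; blue, small subunit). The 24 h values lie between -0.19 and 0.25; the 48 h values shown spread from -0.01 for Rps10 to 1.53 for Rps14.

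The spread between the genes was wider at 48 h than at 24 h. Over the 74 genes at or above 50 CPM the SD between genes was 0.05 at 24 h and 0.30 at 48 h. Log2 levels of these 74 genes correlated across genes with Pearson's r of 0.998 between each pair of the 3 other libraries and of 0.928 to 0.937 with the treated 48 h library, so the order of the levels within the family also differed in that library. The 24 h and 48 h folds of the 77 genes, which share no library, correlated across genes with Spearman's rho of 0.50 and Pearson's r of 0.47, and over 11049 protein-coding genes outside the family with 0.44 and 0.52. Genes are not independent replicates, and these correlations are descriptions. The log2 fold was larger at 48 h than at 24 h for 75 of the 77 genes, by 0.71 in the median, where the median over all tested genes was -0.10; with 1 library a group this difference was not tested.

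Control cells at 48 h differed little from control cells at 24 h in these genes, and the treated libraries differed much. The median log2 change from the earlier to the later time was 0.08 in control cells, with 0 of 77 genes higher by a log2 of 0.32 (background 3.12%) and 0 lower by it (7.07%). In treated cells it was 0.80, with 73 genes higher by that size (13.7%) and 0 lower (27.4%). Over all tested genes the median changes were -0.02 and -0.13, and median-of-ratios rescaling, which moves the treated median of all genes to 0.00, raised the family's change in treated cells to 0.93. The largest change in treated cells was that of Rps14, 1.44, and the next that of Rpl36a, 1.40. The control at 24 h was the lowest of the 4 libraries for 72 of the 77 genes (19.7% of tested genes).

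Whether the genes differed with treatment over both times was tested in limma, in a model with a term for each of time and treatment and no interaction. In this model both times stand in for repeats, which leaves 1 residual degree of freedom. Of the 77 genes 25 rose and 0 fell at a Benjamini-Hochberg adjusted p of 0.05 over all 12160 genes, where 2.92% of all tested genes rose and 2.27% fell. At an unadjusted limma p of 0.05 the counts were 59 and 0 (8.54% and 7.72% of all tested genes). The 25 comprised 15 of the large and 10 of the small subunit, with fitted log2 folds from 0.53 to 0.86 and adjusted p-values (limma) from 0.000106 to 0.0487. Rpl36a rose by 0.86 ± 0.17 (SE; adjusted p = 0.000106, limma) and Rps14 by 0.85 ± 0.18 (0.000311). Rpl26, Rpl34, Rpl39, Rps27a, Rpl30, Rps3, Rpl41 and Rpl11 were among the others that rose. Rps6, Rpsa, Rpl3, Rpl4, Rpl5, Rpl10 and the 3 stalk genes did not pass. Their fitted log2 folds ran from 0.27 for Rplp0 to 0.51 for Rplp1. For time 8 genes rose (background 0.485%) and 0 fell (0.493%). Unadjusted, the limma counts for time were 55 and 0 (4.57% and 9.01%). The 8 were Rps14, Rpl36a, Rpl26, Rpl34, Rpl39, Rpl30, Rpl35 and Rpl22.

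These calls rest on the treated 48 h library and on a spread borrowed from other genes. Since limma estimated infinite prior degrees of freedom, every gene received the usual spread of genes at its level. With 10 prior degrees of freedom, so that the gap between its own 24 h and 48 h folds counts, 0 of the 77 rose at the adjusted p (0.321% of all tested genes did) and 45 at an unadjusted limma p of 0.05 (6.03%), the lowest adjusted p being 0.224. Without the treated 48 h library, which left a single treated library, at 24 h, the calls did not hold. The median log2 fold over the family was 0.12 at 24 h, against 0.82 at 48 h. Without the treated 24 h library 74 rose, in a fit that also called 15.5% of all tested genes higher and 25.2% lower. Without the 24 h or the 48 h control 0 rose (0.189% and 0.132% of all tested genes), and 7 and 13 had an unadjusted limma p below 0.05 (1.81% and 1.79%). With median-of-ratios rescaling, where limma estimated 9.82 prior degrees of freedom, 0 rose (0.781%) and 57 had an unadjusted p below 0.05 (9.70%), and with infinite ones 51 rose (6.65%). For time the count changed with each library left out, where 1 of the times kept a single library. The median log2 change from 24 h to 48 h was 0.08 in control cells and 0.80 in treated cells. Both treated libraries lay above both controls for 60 of the 77 genes, where 20.8% of all tested genes had this order. The 17 others included Rpsa, Rplp0, Rplp1 and Rpl10.

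The treated 48 h library held more reads of short transcripts in general, so the family was compared with genes of like length and level. Ribosomal protein transcripts are short, with a median of 886 bases against 3170 for protein-coding genes outside the family. Over the latter, the log2 fold at 48 h correlated with transcript length with Spearman's rho of -0.47 (11049 genes) and at 24 h with -0.02. At 48 h the shortest 1106 of them had a median log2 fold of 0.34, and the longest 1105 had -0.35. Within the family rho with length was -0.09 at 48 h and 0.10 at 24 h (77 genes).

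**Figure D3:**
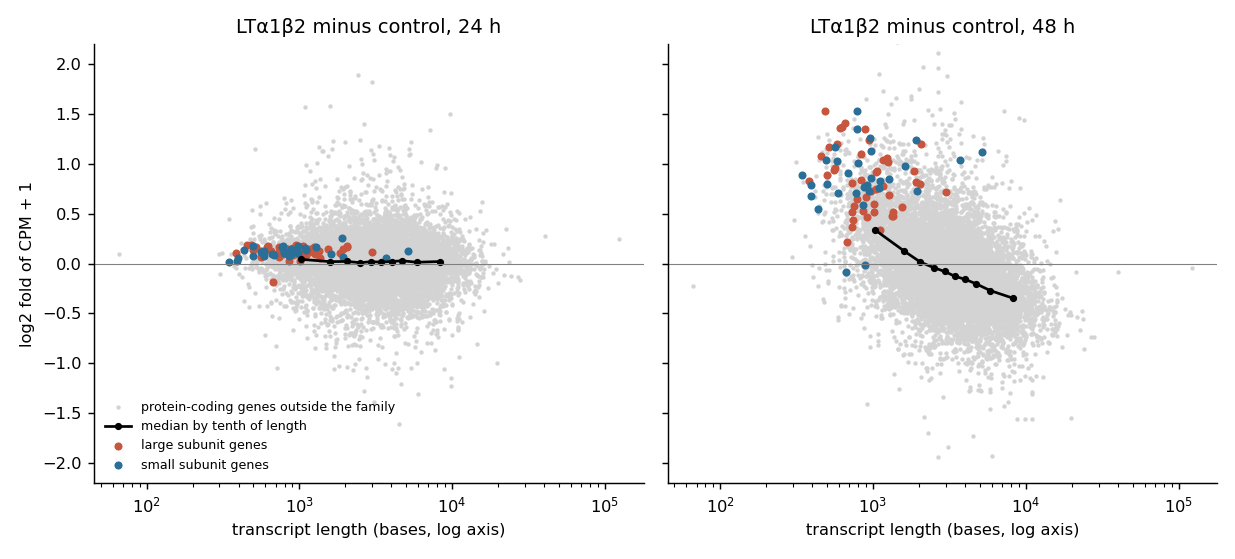
Log2 fold of CPM + 1, treated minus control, against transcript length (log axis) at 24 h and 48 h for 11049 protein-coding genes outside the family (grey), their median in 10 equal groups by length (black) and the 77 ribosomal protein genes (red, large; blue, small). At 48 h the black line falls from 0.34 to -0.35 and most coloured points lie above it; 6 grey genes at 24 h and 13 at 48 h lie beyond the axis.

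For each gene the median fold was taken over outside genes with a transcript length within 1.5-fold and a mean CPM within 3-fold of its own. At least 10 such genes were found for 73 of the 77, with a median of 40. Rpl41, Rplp1, Rps27 and Rpl36 had fewer, since few other short genes are expressed at their level. At 24 h the log2 fold exceeded that of the like genes in 68 of the 73, by 0.08 in the median, and Rpl10, Rpl14, Rplp0 and Rpl24 were among those where it lay below. At 48 h it exceeded it in 66 of the 73, by 0.42 in the median, and by up to 1.35 (Rps15a). The like genes themselves had a median of 0.43 at 48 h, about the same size as the excess of the family over them, and in the median gene 85.0% of its like genes lay below it.

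The size of this excess varied with the role of length and level in the comparison. It was 0.35 at 48 h with closer windows of length (a log2 difference of 0.32) and CPM (2-fold), which left 43 genes, and 0.52 at any CPM. With each library's length trend removed the family's median log2 fold at 48 h was 0.515, and at 24 h 0.09. The high value of Rps15a depends on the transcript chosen, since its principal transcripts differ in length more than those of most members. For Rps14, Rpl36a and Rpl26 the like genes had medians of 0.58, 0.55 and 0.39 against their own 1.53, 1.53 and 1.41. The 7 genes below their like genes at 48 h included Rpl10, Rpl29, Rpl7a, Rpl9 and Rpl27 of the large subunit and Rps10 of the small.

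**Figure D4:**
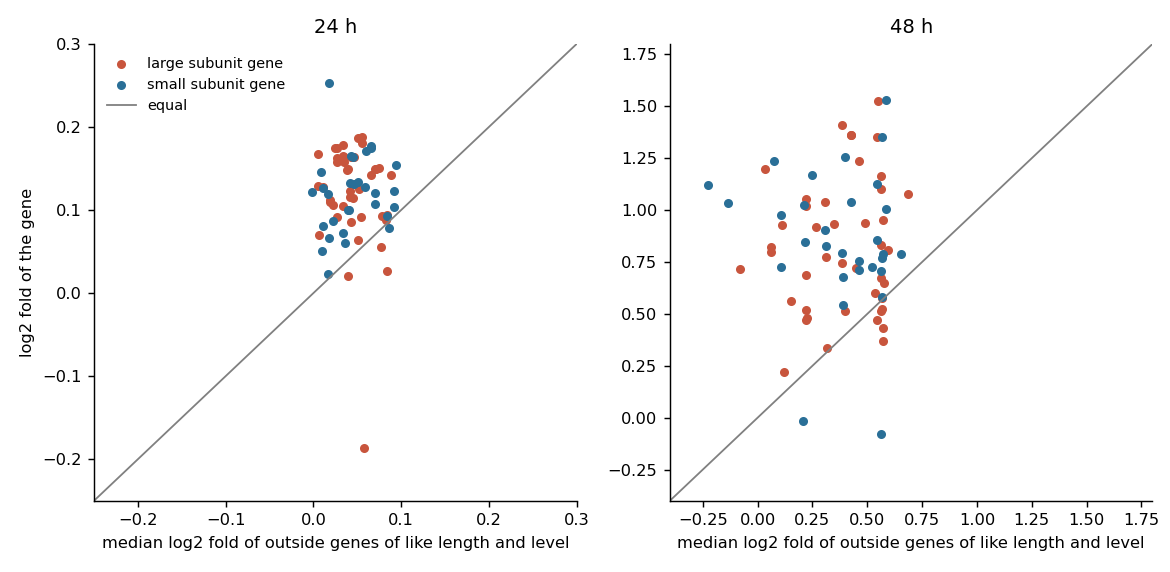
Log2 fold of each ribosomal protein gene (vertical) against the median log2 fold of outside genes of like length and level (horizontal) at 24 h and 48 h, with the line of equality (red, large subunit; blue, small; 73 genes with at least 10 like genes). At 24 h 68 points lie above the line and at 48 h 66.

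Rack1 and Fau, ribosomal protein genes that carry other names, had higher levels in treated cells at both times and did not pass the test (adjusted p = 0.329 and 0.408, limma). Rack1, a scaffold on the small subunit, was at 1217 and 1265 CPM in the control libraries and at 1307 and 1980 CPM in the treated ones. Fau, which encodes Rps30 as a fusion with a ubiquitin-like protein, had log2 folds of 0.06 and 0.55. Of 9 family genes with names ending in l or l1, 3 were tested and 2 rose, where 2.92% of all tested genes did. Rpl22l1, the paralogue of Rpl22, went from 57.4 to 179 CPM with treatment at 48 h, against 55.8 to 58.8 CPM at 24 h, a larger log2 fold (1.63) than any of the 77. Rps27l, a paralogue of Rps27 known as a p53 target, was at 133 and 143 CPM in the control libraries and at 166 and 336 CPM in the treated ones, and Rpl7l1 had 0.18 and 0.33.

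Other mRNAs of the 5′ TOP class were less far above 0 at 48 h. Of 21 translation factor and related genes of this class, 3 rose (14.3%, against 2.92% of all tested genes) and 0 fell, and the medians were 0.13 (24 h) and 0.40 (48 h). The 3 were Eif3e and Eif3m, subunits of initiation factor eIF3, with 48 h log2 folds of 1.20 and 1.22, and Npm1, nucleophosmin, with 0.95. Tpt1, a classical TOP mRNA, went from 1534 to 2979 CPM with treatment at 48 h and did not pass (adjusted p = 0.111, limma). Of 12 tested host transcripts of small nucleolar RNAs, several of which are TOP RNAs too, 4 rose (33.3%) and 0 fell, with medians of 0.13 and 0.67. These were Gas5, Snhg8, Zfas1 and Snhg6, with 48 h log2 folds of 1.06, 1.05, 0.96 and 0.84. Median transcript lengths were 1864 bases (translation factors and related genes) and 1512 (host transcripts) against 886 in the family. Differences between these lists and the ribosomal protein genes, and the part of length in them, were not tested.

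Genes that make or regulate ribosomes had medians nearer to that of all genes at 48 h. Their transcripts were longer than the family's, with median lengths of 2667.5 bases (ribosome biogenesis), 3832 (mTORC1) and 3099 (p53 targets) against 886. Log2 folds at 48 h were lower for longer transcripts in general, and the part of length in these medians was not tested. Of 48 genes of ribosome biogenesis and RNA polymerase I, 1 rose (2.08%, below the 2.92% of all tested genes) and 0 fell, and the medians were 0.19 (24 h) and 0.10 (48 h). The 1 was Nhp2, a protein of the pseudouridylation complex, at 46.1 and 44.4 CPM in the control libraries and 60.3 and 80.0 CPM in the treated ones, and its partner Dkc1 had 0.37 and 0.64 on the log2 scale (adjusted p = 0.0549, limma). Of 26 genes of mTORC1 and its control of TOP mRNAs 0 passed, with medians of 0.04 and -0.09. At an unadjusted limma p of 0.05, 2 were higher and 0 lower, where 8.54% and 7.72% of all tested genes were. Eif4ebp1, which encodes the translational repressor 4E-BP1, had 0.48 and 0.43 and Myc 0.50 and 0.15. Of 19 tested p53 targets linked to ribosomal stress 2 rose (10.5%), Fas and Plk2, with medians of 0.19 and -0.03 over the list.

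Median log2 folds at 48 h of 3 other groups of housekeeping genes lay between those of the family and of all genes. The 72 nuclear genes of the respiratory chain and ATP synthase had medians of 0.04 at 24 h and 0.53 at 48 h, with 11 rising (15.3%, against 2.92% of all tested genes) and 0 falling. The 37 proteasome subunit genes had 0.13, about the family's own 0.12, and 0.52, with 8 rising (21.6%). The 77 mitochondrial ribosomal protein genes had 0.08 and 0.32, with 3 rising (3.90%), a share near that of all genes. Their pooled ratios at 48 h were 1.37 (1.36 to 1.38), 1.36 (1.35 to 1.37) and 1.29 (1.27 to 1.31), against 1.83 for the cytosolic ribosomal protein genes. Median transcript lengths of the 3 groups, in the same order, were 787, 1581 and 1316 bases, against 886 in the family. The part of length in these values was not tested.

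**Figure D5:**
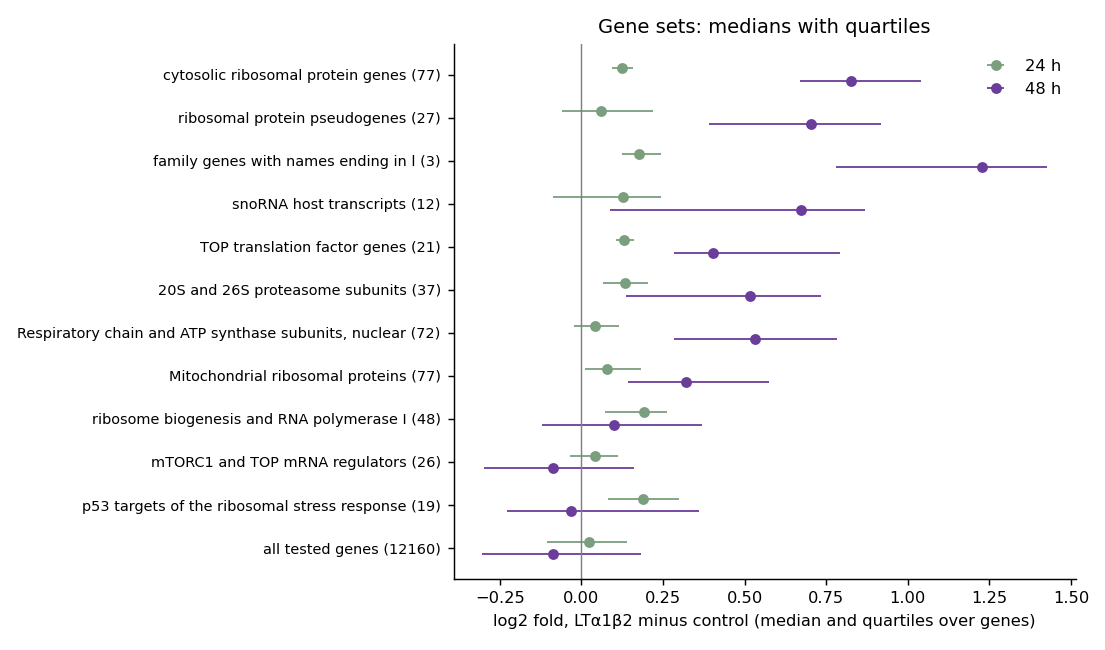
Median log2 fold with quartiles over genes, treated minus control, at 24 h (green) and 48 h (purple), for the 77 genes and related gene sets, with the number tested in brackets. At 48 h the cytosolic ribosomal protein genes have a median of 0.82, exceeded among these sets only by the 3 family genes with names ending in l (1.23), and all tested genes have -0.09. Folds are not adjusted for transcript length, which differs between the sets.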

How the data were processed

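RNA sequencing was done on 4 libraries, 1 per group. Per the labels' protocols, 1 µg of total RNA went into a kit that marks strand and was read as 150 bp pairs. Aligner, counter, annotation and build were not given in the sources used here; edgeR 3.30.0 is named in the submitters' processing notes. The authors deposited CPM for 12208 genes, each column summing to 1000000. Low values were whole multiples of 1 step, which gave 11355974 to 15995777 reads per library (100% within 0.01 of a read), used only for exact 95% intervals (Clopper-Pearson, conditional binomial for ratios); intervals cover counting error only.

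Symbols, biotypes and lengths came from GENCODE M21 (GRCm38; 12205 identifiers matched without version). Length was that of the longest transcript tagged principal, or else of the longest coding transcript. Log2 folds used log2(CPM + 1). Genes with a mean of at least 1 CPM (12160) were fitted with limma 3.58.1 in R 4.3.3 (time + treatment, trended, two-sided, Benjamini-Hochberg 0.05). "Rose" and "fell" mean past this fit. Its code was run on simulated data with the same change at both times and equal noise in all genes. That run cannot show whether the calls hold in these data, where the folds differ between the times. In the fit as reported, p-values rest on the gap between the 24 h and 48 h folds over genes of like level. They do not measure a spread between replicates. The length trend was a lowess (span 0.3) of each library's deviation on log2 length, fitted outside the family. The genes, lists and tests were chosen with earlier results of these data known. Named were, at each time, the 5 genes with the highest and the 5 with the lowest folds, the 5 most and least abundant per kilobase, genes by role, up to 4 per list by mean fold and the 5 nearest profiles; other names were chosen after their values were seen. Single-gene results of some of the genes these rules select are not reported here; counts and medians include them. Alternatives were pseudocounts of 0.25 and 5, other filters, median-of-ratios rescaling, other windows, lengths and folds, and each library left out.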

Additional observations from a re-analysis of the deposited data

Results flagged for a closer look

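Rps10 and Rpl24 had folds of opposite sign at 24 h and 48 h, and the difference between the times was not tested. For Rps10 the log2 fold at 24 h was 0.146 and at 48 h -0.014, from fewer than 7 CPM in every library. For Rpl24 it was -0.187 and 0.221, from about 1 CPM.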

How the results depend on the processing

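Counts of genes that fell with treatment or time in the additive fit stayed at 0 under every setting run, and so did counts at 24 h past a log2 fold of 0.32. Rising counts did not. With treatment, 25 genes became 0 with median-of-ratios rescaling (prior degrees of freedom then estimated at 9.82), 51 with that rescaling and infinite ones, 0 when they were set to 10, 42 with the length trend removed and infinite ones, and 0 to 74 when 1 library was left out, where the other factor was dropped and a lone library was taken to vary like the rest. Removing the length trend with prior degrees of freedom as estimated then (14.5), the count was 23, of which 18 were among the 25. At an unadjusted limma p of 0.05 the counts of 0 under rescaling and with 10 prior degrees of freedom were 57 and 45. Of all tested genes, 2.92% rose with treatment in the fit as reported, 0.781% and 6.65% with rescaling (estimated and infinite), 0.321% with 10 prior degrees of freedom, 4.10% and 8.45% with the length trend removed, and 0.132% to 15.5% with a library left out. With time, 8 became 0 under rescaling, under length-trend removal and with 10 prior degrees of freedom, 49 and 34 under rescaling and length-trend removal at infinite ones, and 0 to 67 when 1 library was left out (the counts of 0 under the first 3 settings were 59, 49 and 38 unadjusted). Over all tested genes, the shares rising with time in limma were 0%, 0.00823% and 0% under the first 3 settings. At infinite prior degrees of freedom they were 3.89% (rescaling) and 4.08% (length trend removed). At an unadjusted limma p of 0.05 the shares for time were 7.48%, 8.88% and 2.76% under the first 3 settings. For treatment they were 9.70% with rescaling and 6.03% with 10 prior degrees of freedom. Median log2 folds were 0.11 (rescaling) and 0.0905 (length trend removed) at 24 h and 0.82 (pseudocount 5), 0.91 (rescaling) and 0.515 (length trend removed) at 48 h. Median changes with time were 0.12 (rescaling) and 0.057 (length trend removed) in control cells, and in treated cells 0.93 and 0.49 in that order, 0.81 and 0.78 with pseudocounts of 0.25 and 5, and 0.82 without the 3 genes under 50 CPM. The excess over genes of like length and level was 0.084 at 24 h and 0.35 at 48 h with closer windows, 0.093 and 0.52 at any CPM, 0.0845 and 0.52 with the longest transcript, and 0.070 and 0.41 with the shortest principal transcript. At 48 h 25 genes were at least 2-fold higher (1.86% of all tested genes). With the length trend removed 2 were at a log2 fold of -0.32 or less, as were 1775 of all 12157 genes with a length. The shortest principal transcript, the prior degrees of freedom set by hand and the removal of low genes were chosen after seeing the data. The test on recovered reads listed as an alternative was not run. No paired analysis was possible because each group held 1 library. Depth limits Rpl24 and Rps10, whose intervals include 1 at both times.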

Other observations

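Processed pseudogenes and other copies of the family were higher at 48 h as well. Of 27 such genes in the table, 5 rose (18.5%, against 2.92% of all tested genes) and 0 fell in limma, with median log2 folds of 0.06 at 24 h and 0.70 at 48 h. Their pooled share of reads was 0.0140% in control and 0.0144% in treated cells at 24 h, and 0.0143% in control and 0.0264% in treated cells at 48 h. Rpl19-ps11, the most abundant, was at 34.9 and 35.9 CPM in control and at 37.8 and 69.6 CPM in treated cells. Reads of these copies and of their parent genes can be shared, so they are no separate measurement of the family. Some copies, Rpl7-ps7 and Rpl6l among them, lay near the filter limit and had their highest value in the treated 48 h library, which the filter mean includes.

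Outside the family, the 5 protein-coding genes whose profile of log2 CPM over the 4 libraries lay nearest to the family's mean profile were Psmb3, a proteasome subunit gene, Uqcc2, an assembly factor gene of respiratory complex III, Mtx2, a mitochondrial outer membrane gene, Lsm3, of the Sm-like RNA-binding ring, and Sat1, of polyamine breakdown. Psmb3 was at 117 and 124 CPM in control and at 127 and 223 CPM in treated cells. Distance was Euclidean over 4 libraries after centring each gene. Of 11049 outside genes 184 lay as near to the mean profile as the median ribosomal protein gene.

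Within the family the log2 fold at 48 h had a weak inverse relation to coding length (Spearman's rho = -0.35 over 77 genes), and one as weak was present in 81 outside genes of like length and level (-0.34). With GC content rho was -0.15 and with log2 CPM 0.10. These genes share the same pair of libraries, and the relations are descriptions.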
